A study of Homo sapiens with 16 samples.

Results

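The genes described here are the ligands, receptors, SMADs and feedback gene of the TGF-beta pathway: TGFB1, TGFB2, TGFB3, TGFBR1, TGFBR2, TGFBR3, SMAD2, SMAD3 and SKIL. They were chosen by name for their place in the pathway, with earlier results of these data known. These 9 genes stand among 35810 genes with estimated counts, and all 9 are also among the 16705 that passed the filter on low counts. Expression was measured by poly(A) RNA-seq in pancreatic progenitors grown from 1 line of human embryonic stem cells, SA121 with an NGN3-GFP reporter, on day 19 of differentiation. The study asked how transcription responds when actin filaments are taken apart by latrunculin B (LatB, 0.5 µM), a compound that binds actin monomers. All 6 groups share this line, genotype and day. Control 0 h, with 3 libraries, is tagged with the vehicle DMSO in the labels but described elsewhere in the series as taken before treatment, control 24 h, with 2 libraries, received DMSO, and LatB was given in 4 groups, with 3 libraries each after 3, 6 and 24 h and 2 libraries after 12 h. The 3 h, 6 h and 12 h groups were compared with control 0 h, so their differences hold time in culture as well as the drug, while the 24 h group was compared with its own vehicle control. The labels do not say whether the replicates were separate cultures, so p-values measure the spread between these libraries, which may be technical.

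TGF-beta ligands are secreted dimers that lie latent in the extracellular matrix, bound to latent TGF-beta binding proteins, until proteases or integrins pulling on the latent complex free them. A free ligand binds the type II receptor TGFBR2, which recruits and phosphorylates the type I receptor TGFBR1, and the co-receptor TGFBR3 (betaglycan) helps to present it, TGFB2 above all. TGFBR1 then phosphorylates SMAD2 and SMAD3, which enter the nucleus with SMAD4, while SKIL (SnoN) represses their targets and is itself induced by the signal as feedback. In the developing pancreas the pathway is known for its influence on the choice between endocrine and duct or acinar fates.

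In the RefSeq table of promoters (GRCh38.p14), all 9 genes had an entry, and for each the entry nearest to the start of its leading transcript was searched from 250 bases before to 50 bases after the start, on both strands. The 250 bases before the start are shown for both signalling receptors, which were higher at each time under LatB, for SMAD3, which was lower at each time, and for SKIL, which was higher at 3 h. Capitals mark matches to GTCTG, the box bound by SMAD proteins, and to TGANTCA, the AP-1 site. These promoters lie on the plus strand, TGFBR2 at chr3:30606351-30606600, TGFBR1 at chr9:99104863-99105112, SMAD3 at chr15:67065352-67065601 and SKIL at chr3:170357465-170357714.
TGFBR2: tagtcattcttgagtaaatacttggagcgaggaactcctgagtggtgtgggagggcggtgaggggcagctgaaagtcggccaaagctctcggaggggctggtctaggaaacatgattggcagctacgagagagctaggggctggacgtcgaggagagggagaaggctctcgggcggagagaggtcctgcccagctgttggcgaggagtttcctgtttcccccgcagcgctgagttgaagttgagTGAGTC
TGFBR1: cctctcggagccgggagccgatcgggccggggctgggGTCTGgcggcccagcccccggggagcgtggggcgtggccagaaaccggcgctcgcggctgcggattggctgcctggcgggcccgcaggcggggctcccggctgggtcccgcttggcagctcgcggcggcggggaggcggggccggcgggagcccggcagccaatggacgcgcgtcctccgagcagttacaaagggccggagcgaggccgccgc
SMAD3: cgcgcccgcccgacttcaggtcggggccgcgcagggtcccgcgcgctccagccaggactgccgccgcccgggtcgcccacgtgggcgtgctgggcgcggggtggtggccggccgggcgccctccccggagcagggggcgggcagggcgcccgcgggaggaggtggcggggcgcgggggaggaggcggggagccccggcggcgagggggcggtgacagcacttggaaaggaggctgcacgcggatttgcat
SKIL: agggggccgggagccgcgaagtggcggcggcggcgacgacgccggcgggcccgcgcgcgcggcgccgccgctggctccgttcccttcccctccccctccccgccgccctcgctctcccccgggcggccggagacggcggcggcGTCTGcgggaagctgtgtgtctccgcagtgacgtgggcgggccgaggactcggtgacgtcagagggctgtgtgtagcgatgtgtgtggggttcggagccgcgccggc

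The TGFBR2 promoter ended in an AP-1 site, TGAGTCA, whose last base is the first transcribed base and is not shown, and 7.71% of the 35116 promoters in the table held a match to TGANTCA. The SMAD box GTCTG was found in the windows of 4 of 9 genes (TGFB2, TGFBR1, SMAD3 and SKIL; in SMAD3 after the start), against 45.3% of all promoters. GGAATG, the site of TEAD factors, was found in the TGFB2 window alone, against 14% of all promoters, and the CArG box of SRF in 0 of 9, against 1.29%. GC boxes (GGGCGG) were present in 6 of 9 windows and in 45.0% of all. These are matches of letters and not tests of binding.

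The libraries held 23609727 to 33515398 estimated reads, which set the precision of each value. The pathway genes rested on very different depths, from 67 to 375 reads per library for TGFB3 to 3324 to 7887 for TGFBR2. Markers of pancreatic progenitors were present in every library, with the sum of 11 genes at 1449 to 2605 TPM (transcript abundance scaled for length and for the library total). Most of that sum was GP2 (1407 TPM on average), and PTF1A averaged 0.341 TPM. The 9 endocrine markers summed to 58.6 to 73.0 TPM at control 0 h, 99.6 to 118 at control 24 h, 134 to 233 at LatB 3 h, 176 to 319 at 6 h, 181 to 184 at 12 h and 137 to 494 at 24 h. SST was the largest part of this sum, averaging 44.1 TPM at control 0 h, 142 at LatB 3 h and 215 at LatB 24 h. NEUROG3 averaged 0.701, 0.877 and 38.0 TPM in the same groups. The 10 mesenchyme markers summed to 61.1 to 132 TPM in 15 libraries and to 437 TPM in LatB 12 h replicate 2, which also held the highest endothelial sum (6 genes, 13.9 TPM against 1.4996 to 5.31 in the others) and the highest liver-like sum (4 genes, 2646 TPM against 684 to 1342). The 4 blood markers summed to 1.496 to 5.21 TPM, with PTPRC at 0 in 14 libraries and HBG1 in 15, and the 3 pluripotency markers to 84.7 to 192 TPM, nearly all of it LIN28A (POU5F1 1.41 and NANOG 0.166 TPM on average). The 12 h replicates were the least alike pair within a group, with r = 0.967 for log2 CPM (CPM is the read count scaled to the library's total) across genes against 0.980 to 0.986 in 13 other pairs, and genes are not independent replicates.

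Per unit of length, the signalling receptors, SMAD2 and TGFB2 were the most abundant of the 9 transcripts in untreated progenitors. At control 0 h (n = 3) SMAD2 stood at 55.8 ± 3.42 TPM (SD), TGFBR1 at 49.4 ± 0.992, TGFBR2 at 46.5 ± 1.67 and TGFB2 at 41.1 ± 2.22. TGFB1 followed at 17.8 ± 1.32 TPM, SMAD3 at 16.7 ± 0.644 and SKIL at 14.2 ± 1.32, while TGFBR3 (5.99 ± 0.607) and TGFB3 (4.32 ± 0.645) were lowest. The libraries of TGFBR1 and TGFBR2 overlapped, as did those of TGFB1 and SMAD3, and the other neighbours in this order did not. SMAD2 and TGFB3 are uncertain on this scale, since short transcript models take a larger share of their TPM than of their reads (SMAD2-207 held 23.9% of SMAD2's TPM on 6.82% of its reads, and TGFB3-205 held 10.6% on 0.305%). The same holds for TGFB2 (TGFB2-203 held 30.9% on 9.89%), TGFB1 (TGFB1-203 held 14.8% on 1.69%), SKIL (SKIL-205 held 14.9% on 1.46%) and TGFBR1 (TGFBR1-208 held 10.3% on 2.98%). The order of these genes and the gaps between them are therefore uncertain too. After 6 h of LatB the order had changed at the top, with TGFBR2 at 83.0 ± 0.496 TPM above SMAD2 at 64.5 ± 3.97 and TGFBR1 at 62.9 ± 0.539, and the last 2 of these overlapped. After 24 h of LatB (n = 3), TGFBR2 at 82.5 ± 12.6 TPM overlapped with SMAD2 at 66.2 ± 5.05.

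**Figure D1:**
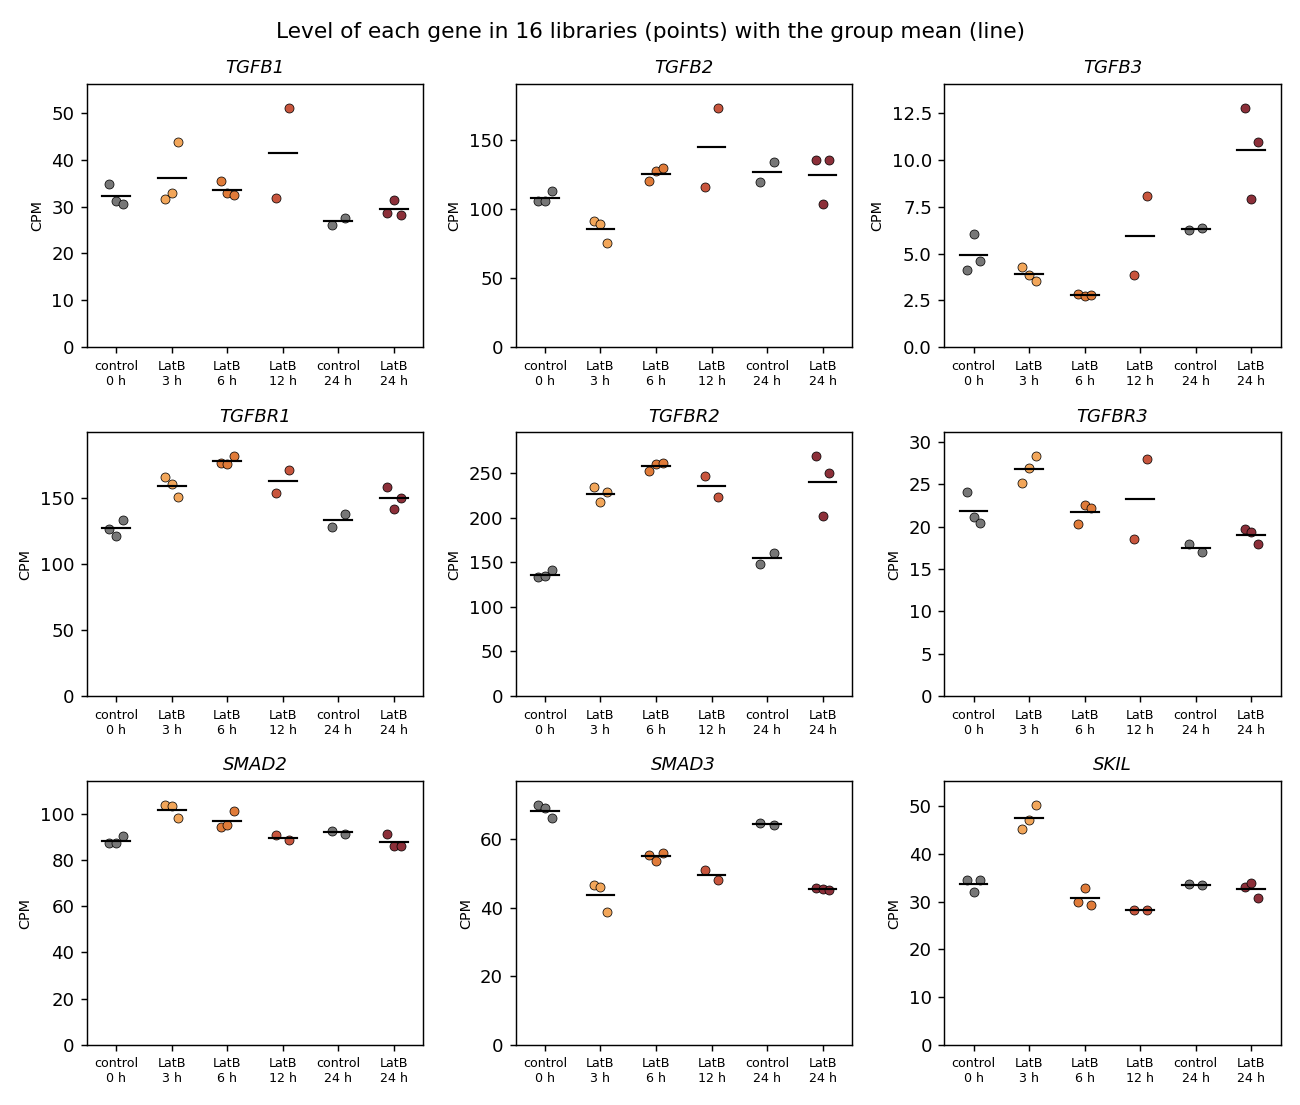
CPM (TMM-scaled, linear axis from 0) of the 9 genes in each library, by group, with points for libraries and a line for the group mean. TGFBR2 is higher in each LatB library than in each control, SMAD3 is lower in each, and SKIL is high only at 3 h, at 45.2 to 50.2 CPM.

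The first comparison asked how the pathway stood after 3 h of LatB. Of the 9 genes, 5 passed the test (edgeR's quasi-likelihood test, Benjamini-Hochberg adjusted p under 0.05 over all genes tested), 4 higher and 1 lower, beside 31.6% of all tested genes called, 16.8% higher and 14.7% lower. The receptors TGFBR1 and TGFBR2, SMAD2 and SKIL were higher and SMAD3 was lower, while the ligands and TGFBR3 did not pass. The median log2 change of the 9 genes was 0.20, against 0.00 over all tested genes. After 6 h, 5 of 9 passed, 3 higher (TGFBR1, TGFBR2, SMAD2) and 2 lower (TGFB3, SMAD3), beside 43.3% of all genes (22.9% higher, 20.4% lower), with a median of 0.06 against -0.01. After 12 h, 5 of 9 passed, 3 higher (TGFB2, TGFBR1, TGFBR2) and 2 lower (SMAD3, SKIL), beside 35.8% (19.1% higher, 16.8% lower), with a median of 0.28 against 0.01. After 24 h, against control 24 h, 4 of 9 passed, 3 higher (TGFB3, TGFBR1, TGFBR2) and 1 lower (SMAD3), beside 40.8% (21.9% higher, 18.8% lower), with a median of 0.12 against 0.01. The libraries of the 2 groups compared did not overlap for 7 of 9 after 3 h, beside 48.2% of all genes. After 6 h this held for 6 of 9 (57.4% of all), after 12 h for 5 of 9 (51.4%) and after 24 h for 7 of 9 (63.9%). These counts are descriptions, and no more is read from them than that many other genes changed as well. The 3 h, 6 h and 12 h comparisons share the control 0 h libraries. In bulk RNA, a change in the number of cells of one type and a change in RNA per cell cannot be told apart.

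Between control 24 h and control 0 h, edgeR called 0 of 9 genes, beside 0.251% of all genes (0.0299% higher and 0.221% lower). The libraries of the 2 controls did not overlap for 7 of 9, beside 28.8% of all genes. TGFBR3 was the single gene with an unadjusted p under 0.05 (0.0303; log2 change -0.32, adjusted p = 0.496 by edgeR), and DESeq2 called 0 of 9 as well. Within the drug series, 3 of 9 genes passed between 3 h and 6 h of LatB, 2 higher (TGFB2, SMAD3) and 1 lower (SKIL), beside 22.2% of all genes (11.9% higher, 10.3% lower), with libraries that did not overlap for 7 of 9 (43.8% of all). Between 6 h and 24 h, 4 of 9 passed, 1 higher (TGFB3) and 3 lower (TGFBR1, SMAD2, SMAD3), beside 37.9% of all genes (19% higher, 18.9% lower), with no overlap for 6 of 9 (52.9% of all). For the change at 24 h (from control 24 h) minus the change at 3 h (from control 0 h), 3 of 9 passed. Of these, 1 was higher (TGFB3) and 2 lower (SMAD2, SKIL), beside 27.9% of all genes (14.6% higher, 13.4% lower).

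**Figure D2:**
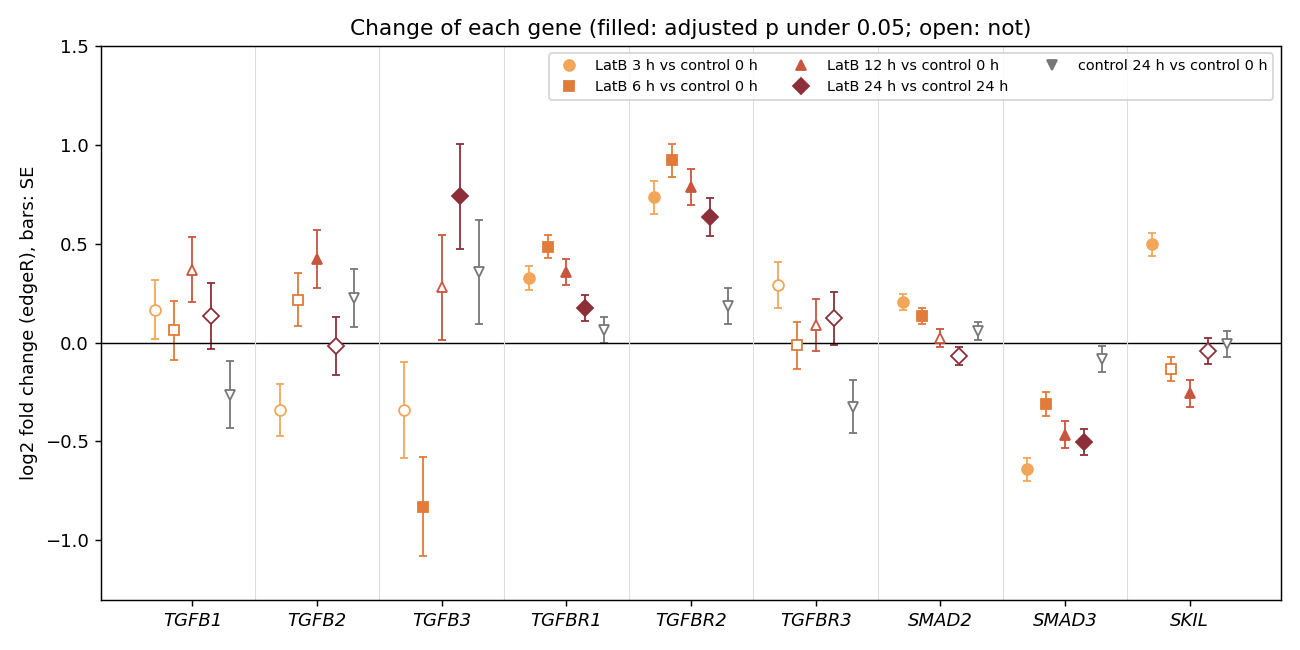
Log2 fold change (edgeR, y axis) with its SE for each of the 9 genes in the 4 LatB comparisons and between the controls, filled where the adjusted p was under 0.05. TGFBR2 lies between 0.63 and 0.92 under LatB and SMAD3 between -0.64 and -0.31, while SKIL and TGFB3 change sides with time.

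Among the receptors, TGFBR2 was the most changed at each time. It stood at 133, 135 and 141 CPM in the control 0 h libraries, at 218, 229 and 234 CPM after 3 h of LatB, at 253, 260 and 262 CPM after 6 h and at 224 and 248 CPM after 12 h. The control 24 h libraries held 149 and 161 CPM and the LatB 24 h libraries 202, 251 and 269 CPM. Each LatB library lay above each control library, and the control 24 h libraries lay above those of control 0 h without passing the test (log2 change 0.18 ± 0.09 SE, adjusted p = 0.637). The log2 change under LatB was 0.73 ± 0.08 (SE) at 3 h (adjusted p = 2.27e-05, edgeR), 0.92 ± 0.08 at 6 h (2.2e-06, or 1.90-fold), 0.79 ± 0.09 at 12 h (2.9e-05) and 0.63 ± 0.09 at 24 h (0.000177). From 6 h to 24 h of LatB it differed by less than the test could call, with overlapping libraries.

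TGFBR1, the type I kinase that TGFBR2 activates, moved the same way by a smaller amount. Its level was 121, 127 and 133 CPM at control 0 h, 151, 161 and 166 CPM after 3 h of LatB, 175, 177 and 181 CPM after 6 h, and 154 and 171 CPM after 12 h. Control 24 h stood at 128 and 138 CPM and LatB 24 h at 141, 150 and 158 CPM. The LatB libraries lay above their controls at each time, and the gap was narrowest at 24 h. TGFBR1 rose by 0.33 ± 0.06 (log2, SE) at 3 h (adjusted p = 0.000875, edgeR), 0.48 ± 0.06 at 6 h (2.54e-05) and 0.36 ± 0.07 at 12 h (0.000967). At 24 h the change was 0.17 ± 0.07 with an adjusted p of 0.04999, a call lost in 15 of 19 alternatives, 4 of which left out a library: either control 24 h library, LatB 24 h replicate 1 or replicate 3 (0.12 to 0.23, adjusted p of 0.0541 to 0.333). Between 6 h and 24 h of LatB it fell by 0.25 ± 0.06 (adjusted p = 0.005).

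TGFBR3, the betaglycan co-receptor, did not pass the test in any comparison. It stood at 20.4, 21.1 and 24.1 CPM at control 0 h and at 25.2, 26.9 and 28.3 CPM after 3 h of LatB, which did not overlap (log2 change 0.29 ± 0.12 SE, adjusted p = 0.0764, edgeR). This 3 h change was called in 3 of 20 alternatives, whose changes ran from 0.15 to 0.62 over all 20. At 6 h the values were 20.3 to 22.5 CPM, at 12 h 18.5 and 27.9 CPM, at control 24 h 17 and 17.96 CPM and at LatB 24 h 17.99 to 19.7 CPM. The higher of the 12 h values belonged to replicate 2, the library with the high mesenchyme sum.

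Of the receptor-regulated SMADs, SMAD3 was called lower than control at each time of LatB and SMAD2 at no time. SMAD3 stood at 66.0, 69.0 and 69.9 CPM at control 0 h, at 38.7, 46.0 and 46.7 CPM after 3 h of LatB, at 53.7, 55.5 and 55.9 CPM after 6 h and at 48.0 and 51.1 CPM after 12 h. Control 24 h held 64.3 and 64.6 CPM and LatB 24 h 45.2, 45.6 and 45.9 CPM. No LatB library reached the lowest control, and the 24 h libraries lay within 1 CPM of one another. SMAD3 fell by 0.64 ± 0.06 (log2, SE) at 3 h (adjusted p = 4.34e-06, edgeR), by 0.31 ± 0.06 at 6 h (0.000887), by 0.47 ± 0.07 at 12 h (0.000168) and by 0.50 ± 0.07 at 24 h (7.23e-05). Its level was higher at 6 h than at 3 h of LatB (0.33 ± 0.06, adjusted p = 0.00186) and lower again at 24 h than at 6 h (-0.27 ± 0.06, 0.00284). The levels at 3 h and 24 h were not compared by a test, and 2 of 3 libraries at 3 h lay above all of those at 24 h.

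SMAD2, the other receptor-regulated SMAD, stood at 87.1, 87.2 and 90.6 CPM at control 0 h and at 98.2, 103 and 104 CPM after 3 h of LatB. It was higher at 3 h by 0.20 ± 0.04 (log2, SE; adjusted p = 0.00192, edgeR) and at 6 h, with 94.3, 94.97 and 101 CPM, by 0.13 ± 0.04 (0.019). The call at 6 h was lost in 11 of 20 alternatives, 4 of them without a single library (control 0 h replicate 1 or 2, LatB 6 h replicate 2 or 3, with changes of 0.08 to 0.13 and adjusted p of 0.0535 to 0.178), and without scaling of the libraries the change was 0.04. At 12 h (88.7 and 90.6 CPM) and at 24 h (86.0, 86.2 and 91.2 CPM, against 91.3 and 92.6 CPM in control 24 h) it did not pass the test, at log2 changes of 0.02 and -0.07. SMAD2 fell by 0.14 ± 0.04 between 6 h and 24 h of LatB (adjusted p = 0.016), a call lost without LatB 6 h replicate 3, LatB 24 h replicate 2 or LatB 24 h replicate 3 (-0.13 to -0.11, adjusted p of 0.0596 to 0.0801), and turned in direction on log2(TPM + 1), at 0.04.

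The ratio of the 2 SMADs within a library, from which scaling cancels, separated LatB from control at each time. SMAD2 to SMAD3, as a ratio of CPM, was 1.29 ± 0.0674 (SD, n = 3) at control 0 h and 1.43 ± 0.0078 (n = 2) at control 24 h. It was 2.33 ± 0.175 (n = 3) after 3 h of LatB, 1.76 ± 0.0565 (n = 3) after 6 h, 1.81 ± 0.0521 (n = 2) after 12 h and 1.93 ± 0.0536 (n = 3) after 24 h. TGFBR2 to TGFBR1 ran from 1.05 to 1.17 in the controls and from 1.31 to 1.70 under LatB. TGFBR2 to TGFB2, a receptor to its ligand, ran from 1.203 to 1.27 in the controls, from 2.45 to 3.02 at 3 h, from 2.02 to 2.10 at 6 h and from 1.85 to 1.99 at 24 h, but was 1.29 in LatB 12 h replicate 2. The ratios compare unequal changes and do not show which of the genes moved.

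**Figure D3:**
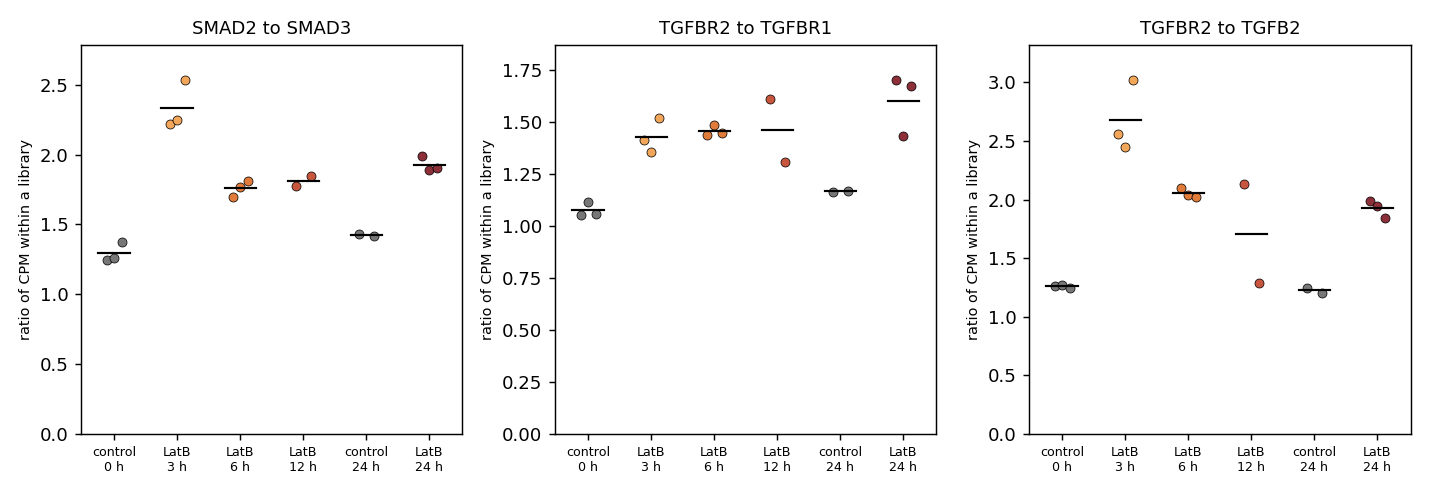
Ratio of CPM within each library (y axis from 0) for SMAD2 to SMAD3, TGFBR2 to TGFBR1 and TGFBR2 to TGFB2, by group, with points for libraries and a line for the mean. The SMAD2 to SMAD3 ratio is 1.248 to 1.43 in the controls and 1.70 to 2.54 under LatB.

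SKIL, the feedback repressor of SMAD-driven transcription, rose and returned. It stood at 32.0, 34.5 and 34.6 CPM at control 0 h, at 45.2, 47.2 and 50.2 CPM after 3 h of LatB, at 29.4, 29.8 and 32.9 CPM after 6 h and at 28.2 CPM in both 12 h libraries. Control 24 h held 33.5 and 33.7 CPM and LatB 24 h 30.7, 33.1 and 34.01 CPM. The 3 h libraries lay above all others. SKIL rose by 0.50 ± 0.06 (log2, SE) at 3 h (adjusted p = 3.17e-05, edgeR, 1.41-fold), and fell by 0.63 ± 0.06 between 3 h and 6 h of LatB (adjusted p = 1.42e-05). Against control 0 h it stood at -0.13 ± 0.06 at 6 h (adjusted p = 0.0882, edgeR), a change called in 4 of 20 alternatives. At 12 h it fell by 0.26 ± 0.07 (0.00928), a call lost in 5 of 18 alternatives. At 24 h, against control 24 h, the change was -0.04 ± 0.07 (adjusted p = 0.651). The change at 24 h (from control 24 h) minus the change at 3 h (from control 0 h) was -0.54 ± 0.09 (adjusted p = 0.000676, edgeR).

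Among the ligands, TGFB2 was the most abundant. It stood at 106, 106 and 113 CPM at control 0 h and at 75.8, 89.0 and 91.6 CPM after 3 h of LatB, where all libraries lay below the controls but the test was not passed (log2 change -0.34 ± 0.13 SE, adjusted p = 0.067, edgeR). TGFB2 was called lower at 3 h in 5 of 20 alternatives, and the change ran from -0.57 to -0.27 over all 20. After 6 h it stood at 121, 127 and 130 CPM (0.22 ± 0.13 against control 0 h, adjusted p = 0.211), and it rose by 0.56 ± 0.13 between 3 h and 6 h of LatB (adjusted p = 0.00917). At control 24 h it was 120 and 134 CPM and at LatB 24 h 104, 136 and 136 CPM, which overlap (-0.02 ± 0.15, adjusted p = 0.934). At 12 h the replicates held 116 and 174 CPM, and the change of 0.42 ± 0.15 (adjusted p = 0.0379) fell to 0.10 (adjusted p = 0.625) without replicate 2. Leaving out any 1 of the control 0 h replicates also ended the call (adjusted p of 0.0609 to 0.104), and 11 of 18 alternatives did so in all.

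TGFB1, the most widely expressed of the ligands across tissues, did not pass the test in any comparison. It stood at 30.6, 31.2 and 34.9 CPM at control 0 h, 31.7, 33.0 and 43.8 CPM after 3 h of LatB, 32.5, 33.0 and 35.4 CPM after 6 h, and 31.8 and 51.1 CPM after 12 h. At 24 h the controls held 26.1 and 27.6 CPM and the LatB libraries 28.3, 28.7 and 31.5 CPM, with a log2 change of 0.14 ± 0.17 (SE, adjusted p = 0.551, edgeR). The high values were single libraries, LatB 3 h replicate 3 and LatB 12 h replicate 2. Without LatB 12 h replicate 2, the 12 h change went from 0.37 (adjusted p = 0.0985) to -0.02.

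TGFB3 was the least abundant ligand and had the widest range of the 9 genes, 1.87 between its lowest and highest group mean of log2 CPM. It stood at 4.11, 4.62 and 6.03 CPM at control 0 h, 3.51, 3.86 and 4.28 CPM after 3 h of LatB, 2.72, 2.78 and 2.82 CPM after 6 h, and 3.85 and 8.05 CPM after 12 h. Control 24 h held 6.24 and 6.39 CPM and LatB 24 h 7.89, 10.97 and 12.8 CPM. The 3 lowest libraries of the series were those of LatB 6 h, and each LatB 24 h library lay above both controls, though replicate 2 lay just under LatB 12 h replicate 2. TGFB3 fell by 0.83 ± 0.25 (log2, SE) at 6 h (adjusted p = 0.0159, edgeR) and rose by 0.74 ± 0.27 at 24 h (0.039). Between 6 h and 24 h of LatB it rose by 1.93 ± 0.25 (adjusted p = 5.7e-05, 3.799-fold), a call that remained in all 19 alternatives. The calls against control were weaker: that at 6 h was lost in 6 of 20 alternatives, among them without control 0 h replicate 2 (-0.67, adjusted p = 0.072), and that at 24 h in 10 of 19, among them without either control 24 h library or without LatB 24 h replicate 1 or 3 (adjusted p of 0.0861 to 0.168). The endocrine sum, of which SST was the largest part, was also highest in a 24 h library (137, 494 and 433 TPM in replicates 1, 2 and 3, where TGFB3 was 12.8, 7.89 and 10.97 CPM), and its part in the result was not tested.

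LatB 12 h replicate 2 was the highest of the 16 libraries for TGFB1 and TGFB2, and its mesenchyme sum was the highest too (437 TPM against 80.4 TPM in replicate 1). Not every mesenchyme marker was highest at 12 h. COL1A2 (102 TPM, against up to 62.3 at 12 h) and PDGFRA (6.41 against 5.57) were highest at LatB 3 h, and PRRX1 (1.36 against 0.657) at control 24 h. The other markers were highest at 12 h, COL3A1 at up to 207 TPM and LUM at up to 116 TPM. The liver-like and endothelial sums were also highest in replicate 2 (2646 and 13.9 TPM), and their part in the ligand values was not tested. Without LatB 12 h replicate 2, the 12 h change was -0.36 for TGFB3 and -0.24 for TGFBR3, in place of 0.28 and 0.09. Without replicate 1, 8 of 9 genes were called at 12 h in place of 5. The 12 h calls of TGFBR1, TGFBR2, SMAD3 and SKIL remained without either replicate, and the part of the mesenchyme RNA in the ligand values was not tested.

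Exons were compared for 1 pair of transcripts in each of 2 genes, TGFBR2 and TGFB2, and each pair differs by 1 coding exon. Other genes of the 9 also had coding transcripts of unlike length, which were not compared in this way. For TGFBR1 these included TGFBR1-201 (426 residues, 52.5% of its reads) and TGFBR1-209 (507 residues, 31.5%). For SMAD2 they included SMAD2-202 (437 residues, 38.6%) and SMAD2-201 (467 residues, 20.0%). TGFBR2-202 carries an exon of 75 bases (25 codons, exon 2 of 8) that TGFBR2-201 lacks, at chr3:30623199-30623273 on the plus strand of GRCh38, giving annotated proteins of 592 and 567 residues. TGFB2-201 carries an exon of 84 bases (28 codons, exon 2 of 8) that TGFB2-202 lacks, at chr1:218363334-218363417 on the plus strand, giving 442 and 414 residues. Both exons are shown because they tell the transcripts apart, from GENCODE 44.
TGFBR2-202 exon: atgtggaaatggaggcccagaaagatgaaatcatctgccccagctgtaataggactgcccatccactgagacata
TGFB2-201 exon: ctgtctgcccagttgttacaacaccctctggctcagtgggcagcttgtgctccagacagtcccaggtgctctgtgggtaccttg

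Both TGFBR2 transcripts were higher under LatB, as estimated by salmon. TGFBR2-202 lay between 12.8 and 18.1 TPM in the 5 control libraries and between 20.9 and 34.3 TPM in the 11 LatB libraries. TGFBR2-201 lay between 27.3 and 40.2 TPM in the controls and between 41.3 and 61.6 TPM under LatB. Neither overlapped, while the share of TGFBR2-202 did, at 25.1 to 39.8% in the controls and 26.7 to 45.4% under LatB. For TGFB2 it was the share of the transcript with the extra exon that moved, counted within TGFB2-201 and TGFB2-202 alone. That leaves out TGFB2-203, which has no defined coding sequence and held 30.9% of the gene's TPM on 9.89% of its reads. TGFB2-201 made up 38.7, 39.1 and 40.2% of the TPM of both transcripts at control 0 h and 41.4 and 42.9% at control 24 h. It made up 42.0, 46.6 and 49.6% after 3 h of LatB, 44.8, 48.8 and 50.7% after 6 h, 47.2 and 54.3% after 12 h and 45.4, 47.1 and 52.4% after 24 h. The LatB 3 h library at 42.0% lay between the control 24 h libraries, and the 10 other LatB libraries lay above all controls. At 3 h the shift went with a lower TGFB2-202, at 10.7 to 12.1 TPM against 16.1 to 17.7 TPM at control 0 h. These shares are estimates from shared reads and were not tested.

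SMAD3 came almost wholly from 1 transcript, SMAD3-201 (98.3% of its reads), which lay between 13.96 and 15.4 TPM in the controls and between 7.54 and 11.4 TPM under LatB. SKIL-201 and SKIL-204, which encode the same 684 residues, could not be separated: the share of SKIL-204 ran from 0 to 100% between replicates of one group, at control 0 h as at 6 h and 24 h of LatB, so only the sum over the gene is used for SKIL.

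**Figure D4:**
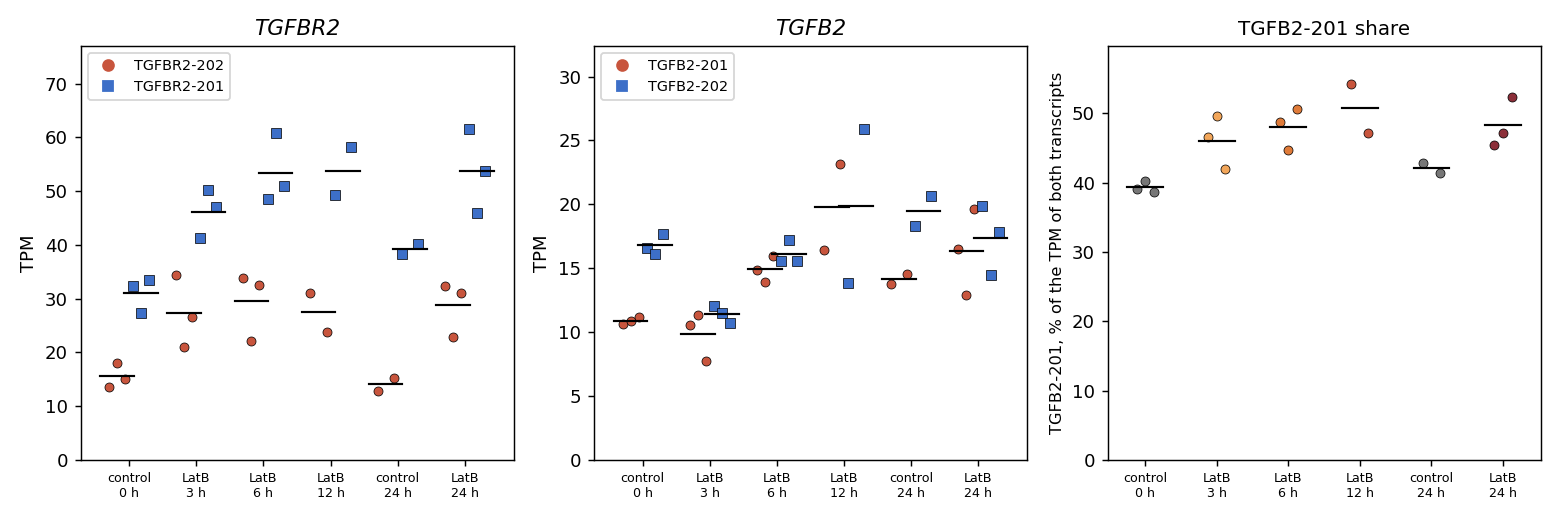
TPM (linear axes from 0) of the 2 TGFBR2 transcripts and of the 2 TGFB2 transcripts with most reads in each library, and the percent share of TGFB2-201 in the TPM of that TGFB2 pair, with points for libraries and lines for group means. Both TGFBR2 transcripts are higher under LatB, and the TGFB2-201 share is 38.7 to 42.9% in the controls and 42.0 to 54.3% under LatB.

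Around these genes, 3 lists of pathway genes were followed. Of the regulators of the signal (19 genes, all tested), 9 were higher and 3 lower at 6 h, beside 22.9% and 20.4% of all genes, and 4 were higher and 8 lower at 24 h, beside 21.9% and 18.8%. At 3 h it was 9 higher and 1 lower, beside 16.8% and 14.7% of all genes, and at 12 h 4 higher and 6 lower, beside 19.1% and 16.8%. The gene lower at 3 h was SMAD7, the inhibitory SMAD that is normally induced by the pathway and blocks TGFBR1. SMAD7 stood at 12.9 to 15.6 CPM at control 0 h and 15.7 to 16.4 CPM at control 24 h, against 2.97 to 3.18 CPM at 3 h, 3.37 to 4.57 at 6 h, 3.76 to 4.74 at 12 h and 4.26 to 5.49 CPM at 24 h of LatB. It fell by 2.26 ± 0.14 (log2, SE; adjusted p = 2.12e-07, edgeR) at 3 h, by 1.82 ± 0.14 (6.21e-07) at 6 h and by 1.69 ± 0.15 (3.72e-06) at 24 h. This was opposite in direction to SKIL at 3 h, although both are feedback inhibitors.

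Of the other regulators named, PMEPA1 and TGIF1 were higher at both 6 h and 24 h. PMEPA1, which sequesters receptor SMADs, rose by 0.86 ± 0.15 at 6 h (adjusted p = 0.000352, edgeR) and 0.54 ± 0.16 at 24 h (0.0182). The 6 h call was lost in 4 of 20 alternatives, with changes down to 0.29, and the 24 h call in 6 of 19, among them without control 24 h replicate 1 or 2 (adjusted p up to 0.119). TGIF1, a corepressor of SMADs, rose by 0.76 ± 0.12 at 6 h and 0.46 ± 0.14 at 24 h, where the call was lost in 3 of 19 alternatives. TRIM33, which binds SMAD2 and SMAD3, rose by 0.54 at 6 h but did not pass at 24 h (0.10, adjusted p = 0.161). FKBP1A, which holds TGFBR1 inactive, rose by 0.24 at 24 h, a call lost in 4 of 19 alternatives (changes of 0.15 to 0.33). NEDD4L, a ubiquitin ligase for SMAD2 and SMAD3, fell by 0.21 at 6 h, a call lost in 5 of 20 alternatives (-0.06 with an offset for transcript length), and by 0.47 at 24 h. PPM1A, a SMAD phosphatase, fell by 0.15 at 6 h, but the call was lost in 10 of 20 alternatives and the direction turned in 3, with the length offset and both limma fits on TPM. BAMBI, a decoy receptor, fell by 0.89 at 24 h.

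Of the genes that store or activate the ligands (10 of 11 tested), 1 was higher and 1 lower at 3 h, beside 16.8% and 14.7% of all genes, and 1 higher and 4 lower at 6 h, beside 22.9% and 20.4%. At 12 h 2 were higher and 5 lower, beside 19.1% and 16.8%, and at 24 h 0 were higher and 7 lower, beside 21.9% and 18.8%. The list median at 24 h was -0.52, against 0.01 over all genes. THBS1, which activates latent TGF-beta, fell by 2.66 ± 0.36 (log2, SE; adjusted p = 6.36e-05, edgeR) at 6 h and by 1.41 ± 0.37 (0.00782) at 24 h. ITGB6, the beta subunit of an integrin that frees TGFB1 and TGFB3, fell by 0.96 ± 0.25 (0.00754) at 6 h and fell by 2.09 ± 0.28 (8.59e-05) at 24 h, where its 6.72 ± 1.39 CPM (SD, n = 3) compare with 28.6 ± 2.31 (n = 2) in control 24 h. LTBP4, a latent TGF-beta binding protein, fell by 0.65 ± 0.13 at 6 h and LTBP2, a matrix protein of the same family, by 1.22 ± 0.14 at 24 h. The gene higher at 3 h was ITGB8, another integrin beta subunit, at 0.36 ± 0.08 (0.00414), named after its values were seen. It averaged 80.1 CPM at control 0 h, 102.6 at LatB 3 h, 91.6 at 6 h and 71.2 at 12 h. At 24 h it averaged 80.6 CPM under LatB and 85.3 CPM in the control. The gene higher at 6 h was LRRC32, a cell surface anchor of latent ligand, at 0.58 ± 0.18 (0.0182), which is named here after its value was seen since it falls under the level set for naming. It averaged 0.98 CPM at control 0 h and 1.46 CPM at LatB 6 h. In TPM it averaged 0.472 and 0.444 in these groups, so the rise was not seen on that scale, and its call was not followed through the alternatives. At 12 h the higher genes were LRRC32 and FBN1, a fibrillin, and FBN1, also named after its values were seen, overlapped with control 0 h (31.2 and 128 CPM against 31.6 to 36.6 CPM).

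Of 18 genes known as targets of the pathway, 3 were higher and 4 lower at 3 h, beside 16.8% and 14.7% of all genes, and 3 higher and 5 lower at 6 h, beside 22.9% and 20.4%. At 12 h 4 were higher and 3 lower, beside 19.1% and 16.8%, and at 24 h 2 were higher and 4 lower, beside 21.9% and 18.8%, so that the counts lay near the background. The list median was -0.25, -0.32, 0.14 and -0.21 in turn, against -0.01 to 0.01 over all genes. The 12 h values are uncertain, since CDKN1A and SNAI2, called higher there and named after their values were seen, overlapped with control 0 h (CDKN1A at 74.4 and 230.3 CPM against 70.8 to 79.6 CPM), and 11 genes of the list were called without LatB 12 h replicate 1 in place of 7. COL1A1 and COL1A2 of this list are also among the mesenchyme markers, whose sum was 437 TPM in replicate 2 and 80.4 TPM in replicate 1, and their part in the list's 12 h values was not tested. At 6 h the higher genes, as log2 changes, were BHLHE40 (2.11), IGFBP3 (1.296) and TGFBI (0.55, lost in 4 of 20 alternatives, down to 0.12). The furthest lower were CCN2 (-5.70), TAGLN (-1.20) and ACTA2 (-1.18, lost in 3 of 20 alternatives). At 24 h the higher genes were IGFBP3 (1.23) and JUNB (0.53, lost in 5 of 19 alternatives, down to 0.04) and the furthest lower TAGLN (-3.55), CCN2 (-3.02) and COL4A1 (-0.97). CCN2 is also a target of YAP, and ACTA2 and TAGLN are targets of SRF with its cofactor MRTF, so the list does not read TGF-beta signalling alone. The reagents listed by the study include ALK5iII, an inhibitor of ALK5 (TGFBR1). The paper does not say at which stage it was in the medium, and its part in these levels was not tested.

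**Figure D5:**
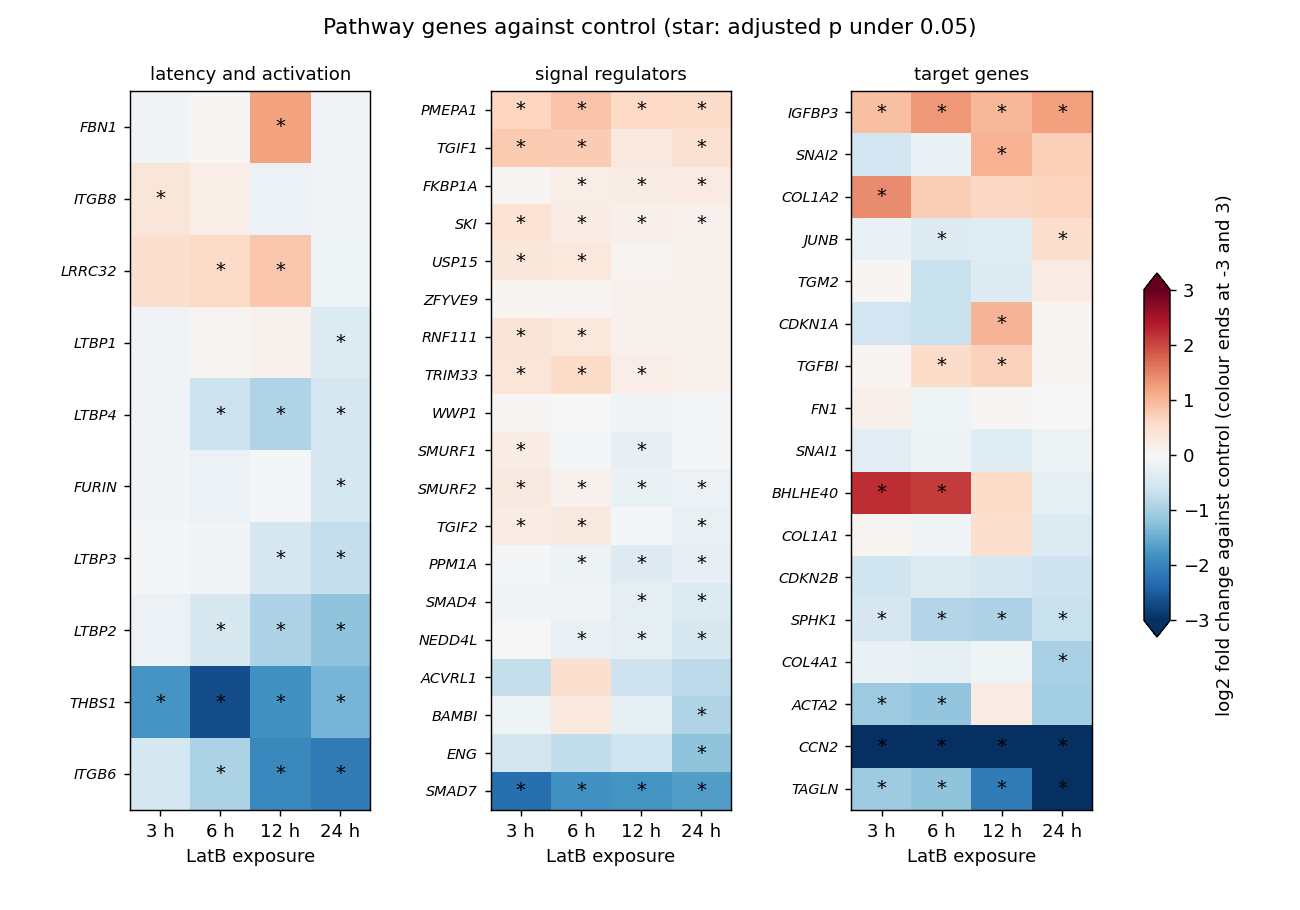
Log2 fold change (colour, limited to -3 to 3) of genes of 3 pathway lists after 3, 6, 12 and 24 h of LatB against their controls, with a star where the adjusted p was under 0.05. SMAD7, THBS1, CCN2 and TAGLN are lower at each time, and of 10 latency and activation genes 7 are lower and 0 higher at 24 h, beside 18.8% and 21.9% of all genes.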

How the data were processed

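Poly(A) RNA-seq (NEBNext Ultra II, NextSeq) of 16 libraries was analysed, grouped by their labels. The authors deposited, per library, a transcript table with estimated counts and TPM values for 177456 transcripts; per the labels, these come from Salmon 1.3.0 on hg38, whereas the study's methods describe STAR gene counts. A table deposited by the authors with DESeq2 fold changes and p-values and 16 columns of per-sample values was not used. Reads are shared among transcripts by estimation, and strand use is not given in the sources used here.

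Transcripts were joined to genes through GENCODE 44 by identifier without version (165533 matched, and 2.92 to 3.17% of reads were left out), and estimated counts were summed and rounded. edgeR 4.0.16 (R 4.3.3) fitted all 6 groups together, with TMM scaling and filterByExpr, two-sided quasi-likelihood tests, and Benjamini-Hochberg adjustment over 16705 genes. SE is the log2 change divided by the square root of F. CPM uses TMM-scaled library sizes, and TPM was used to compare levels between genes. Totals of 23609727 to 33515398 reads per library set the precision.

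The 9 genes and all gene lists were chosen with earlier results of these data known. Named were all 9 genes and, from each pathway list, the 3 largest rises and 3 largest falls among called genes at 6 h and at 24 h with a mean log2 CPM of at least 1. Counts for the target list include a gene not reported here. Marker lists covered progenitor, endocrine, mesenchyme, endothelium, blood, liver-like and pluripotent cells. Alternatives were DESeq2 1.42.0, RLE factors, unscaled libraries, dropping the filter or raising it to a mean count of 50, a length offset, a replicate block, only the compared groups, adjusted p under 0.01, a log2 change of at least 1, limma 3.58.1 on log2(TPM + 1) and log2(TPM + 0.1), the other control, leaving out each library, and, added after seeing the data, both 12 h libraries out. The scripts were tested on simulated data. Promoters are from RefSeq, GRCh38.p14.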

Additional observations from a re-analysis of the deposited data

Results flagged for a closer look

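For 3 of the 9 genes the change from control differed between 3 h and 24 h of LatB. The change after 24 h (from control 24 h) minus the change after 3 h (from control 0 h) passed its own test by edgeR with Benjamini-Hochberg adjustment over all genes, beside 27.9% of all genes. The 3 h change holds time in culture as well as the drug, so this difference is not one of the drug effect alone. SKIL had a difference of -0.54 ± 0.09 (log2, SE; adjusted p = 0.000676), with changes of 0.50 at 3 h and -0.04 at 24 h. SMAD2 had a difference of -0.27 ± 0.06 (adjusted p = 0.00552), with changes of 0.20 and -0.07. TGFB3 had a difference of 1.08 ± 0.36 (adjusted p = 0.0379), with changes of -0.34 and 0.74, and this call was lost in 13 of 24 alternatives. In 8 of them 1 library was left out (control 0 h replicate 2 or 3, either control 24 h library, LatB 3 h replicate 2 or 3, LatB 24 h replicate 1 or 3), with differences of 0.92 to 1.13 and adjusted p of 0.054 to 0.117. The 2 controls hold 3 and 2 libraries.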

How the results depend on the processing

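TGFBR2 and SMAD3 kept their calls in all 4 LatB comparisons against control under every alternative run except a log2 change of at least 1, which neither reached. With that limit the number of the 9 genes called was 0 at 3 h, 6 h, 12 h and 24 h and between 3 h and 6 h of LatB, 1 between 6 h and 24 h, and 1 for the 24 h minus 3 h difference. At adjusted p under 0.01 it was 3 at 6 h and 2 at 24 h. With limma on log2(TPM + 1) and on log2(TPM + 0.1) alike it was 3 at 6 h, 3 at 12 h, 2 at 24 h, 1 between 3 h and 6 h, 1 between 6 h and 24 h and 0 for the difference. With only the groups compared in the fit it was 3 at 12 h and 7 between 3 h and 6 h, with a length offset 2 at 24 h and 1 for the difference, and without scaling 2 between 6 h and 24 h. With both 12 h libraries out, an alternative chosen after seeing the data, it was 5 between 3 h and 6 h. Leaving out 1 library at a time gave 5 to 5 at 3 h, 4 to 5 at 6 h, 4 to 8 at 12 h, 2 to 4 at 24 h, 3 to 3 between 3 h and 6 h, 3 to 4 between 6 h and 24 h, 2 to 3 for the difference and 0 to 0 between the controls; the count was 8 without LatB 12 h replicate 1. Where 1 library was left in a group, it was assumed to vary like the other groups.

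Directions turned as follows, all log2 changes. With the length offset, limma at TPM + 1 and limma at TPM + 0.1 in turn, TGFB1 was -0.074, -0.15 and -0.16 at 3 h and -0.066, -0.15 and -0.16 at 6 h, TGFB3 was 0.42, 0.24 and 0.26 at 3 h, PPM1A was 0.16, 0.062 and 0.063 at 6 h, TGFB2 was 0.16, 0.13 and 0.14 at 24 h, SMAD2 was 0.12, 0.097 and 0.098 at 24 h, and SKIL was 0.026, 0.0021 and 0.0019 at 24 h. SMAD2 between 6 h and 24 h was 0.037 and 0.038 in the limma fits. Without scaling TGFB1 was -0.029 at 6 h and TGFB2 0.00605 at 24 h. With the other control as the reference, TGFB2 was -0.01022 and TGFBR3 0.31 at 6 h, TGFB3 was -0.077 and SMAD2 -0.037 at 12 h, and TGFB1 was -0.13, TGFB2 0.21 and TGFBR3 -0.20 at 24 h. Leaving out 1 library gave -0.013 to 0.23 for TGFB1 at 3 h, -0.062 to 0.061 for TGFBR3 at 6 h, -0.019 to 0.67 for TGFB1, -0.36 to 0.70 for TGFB3, -0.24 to 0.35 for TGFBR3 and -0.0036 to 0.039 for SMAD2 at 12 h, and -0.10 to 0.10 for TGFB2 and -0.072 to 0.00086 for SKIL at 24 h. Of these, SMAD2 between 6 h and 24 h and PPM1A at 6 h were called as reported, and the cause was not tested.

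Deviations from the group mean showed no common direction in samples with the same replicate number (r from -0.24 to 0.12 over 36 pairs, median -0.02). Deviations within a group offset one another by construction, so this check cannot exclude a batch shared by samples of the same number. With the replicate block, 2 of the 9 genes were called at 24 h in place of 4. Without scaling, the median over all genes shifted to -0.10 at 6 h and 0.14 between 6 h and 24 h, and the share of calls that were higher went from 53.3 to 36.1% at 3 h, from 52.8 to 37.7% at 6 h, from 50.1 to 73.8% between 6 h and 24 h and from 52.1 to 69.0% for the difference. Between the controls, DESeq2 called 248 genes where edgeR called 42. Depth limits TGFB3 most, with as few as 67 reads in a library.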

Other observations

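For the 3 genes with the widest range of group means, the genes whose log2 CPM was most alike over the 16 libraries were listed, among 10513 genes with a mean log2 CPM of at least 3. For TGFBR2 these were CCNJ, a cyclin (Pearson r = 0.975), TOP1, the DNA topoisomerase I (0.967), and RNF2, a Polycomb ubiquitin ligase (0.965). For SKIL they were KBTBD2 (0.970), USP53 (0.941) and TOR1AIP1, a protein of the inner nuclear membrane (0.927). For TGFB3 they were VPS41 (0.939) and VPS8 (0.913), subunits of endosomal tethering complexes, and NINJ1 (0.909). The libraries share groups, controls and depth, so these are descriptions without a test.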
